A study of Mus musculus with 107 samples.

Results

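M3 is the name of 1 of 3 sets of eggs from mos -/- mice in this series, and the comparison here sets the M3 eggs of batch 2 against the wildtype eggs of the same batch. The rule took samples titled M3 on plates 1 and 2 and samples titled WT on plate 3, and dropped eggs under 10000 total counts. It also asks for results with and without M3 egg 8, which it names for its zygotic transcripts. It found 18 M3 eggs, of which 17 were kept (6 on plate 1 and 11 on plate 2, with egg 11 dropped at 582 counts), and 24 wildtype eggs, all kept, of 107 eggs in the series. All eggs were from C57BL/6J females of 2 to 3 months that were given 5 IU of pregnant mare serum gonadotropin 48 h before collection. Oocytes were held in 2.5 µM milrinone at the germinal vesicle stage, matured in culture without it, and taken as single eggs 38 to 40 h after breakdown of the germinal vesicle. M3 eggs were mos -/- and wildtype eggs carried no stated mutation, and neither group was activated. The names M1, M2 and M3 are not defined in the labels. A deposited table of eggs lists a number of growths, also undefined, which was 3 for every M3 egg and 1 for every wildtype egg. Among kept eggs of both batches it was 1 for M1 and 2 for M2, so it equalled the number in the name of each mutant set. No label ties an egg to a mouse. Each plate of this comparison held 1 genotype of the pair, so plate and genotype cannot be told apart within batch 2.

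Mos encodes a kinase that the oocyte makes from stored mRNA when meiosis resumes. It phosphorylates MEK, which activates the ERK kinases, and this cascade is part of the cytostatic activity that holds a mature egg at metaphase II until fertilization. Mouse eggs without Mos are known to leave this arrest at times without sperm. The mature egg hardly transcribes its genome, so its RNA is largely what was stored during growth, and poly(A) tails are lengthened, shortened or lost as messages are used and cleared. Smart-seq2, the method used here, copies polyadenylated RNA of 1 cell, so a level can move with the tail as well as with the amount, and levels are shares of a total.

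Total counts per egg ran from 338180 to 1312886 in M3 eggs (median 767456) and from 66826 to 630687 in wildtype eggs (median 207420), so M3 eggs were the deeper ones. At an equal depth of 60000 counts, 6714 ± 471 genes were detected in M3 eggs (SD, 17 eggs) and 5200 ± 599 in wildtype eggs (SD, 24 eggs). The 50 most abundant genes of an egg held 16.8 to 24.3% of counts in M3 eggs and 19.4 to 45.9% in wildtype eggs. This share was above 35% in 9 wildtype eggs and in no M3 egg. In the same batch the median number of genes was 6419 in M1, 6479 in M2 and 6761 in strontium-activated wildtype eggs, so the wildtype plate had the lowest median of the 5 groups. Of 15 egg markers all were detected in both groups. Of 19 granulosa and cumulus markers, 5 were at 0 in all M3 eggs and 11 in all wildtype eggs, among them Fshr, Inhbb and Ptx3 in both, and their summed raw level was 92.7 to 394 CPM (counts scaled to the same total in every egg) in M3 and 77.7 to 558 CPM in wildtype eggs. Among 17 markers of theca, stroma, endothelium and blood, 7 were at 0 in M3 and 10 in wildtype eggs, with Ptprc, Hba-a1 and Hbb-bs at 0 in both.

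**Figure D1:**
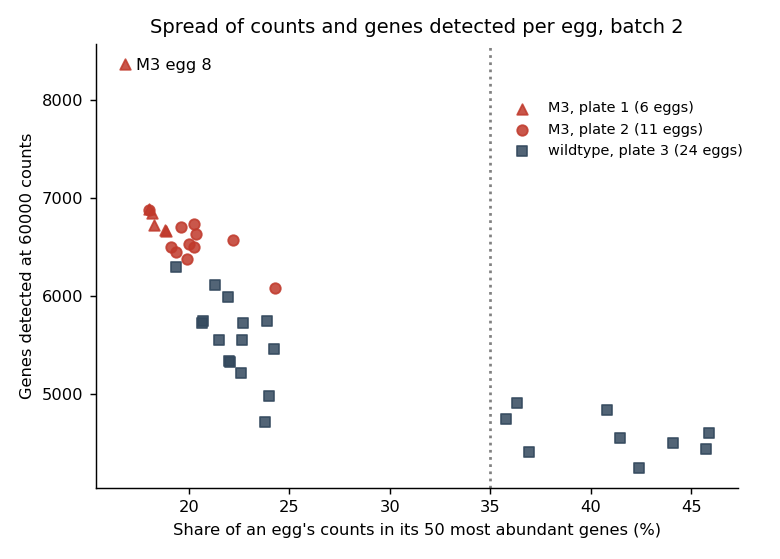
Each point is 1 egg of batch 2, with the share of its counts in its 50 most abundant genes (x axis, %) against the genes detected at 60000 counts (y axis); the dotted line is at 35%. The M3 eggs of both plates lie at 16.8 to 24.3%, egg 8 stands at 8367 genes, and 9 of 24 wildtype eggs lie beyond the line.

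Eggs of 1 group in 1 batch may come from the same mice, so their counts were summed and the sum counted as 1 sample. The 13076695 counts of the M3 sum and the 5436993 of the wildtype sum in batch 2 then have no replicate and no test. The test used the M3 and wildtype sums of both batches (batch 1 had 3 M3 and 5 wildtype eggs), with M1 and M2 sums sharing the estimate of spread and batch as a term. The activated sum, of batch 2 only, was in the fit but adds nothing to that estimate. The test was edgeR's quasi-likelihood F test with Benjamini-Hochberg adjustment, and "called" means an adjusted p under 0.05. Levels of sums are CPM scaled by trimmed mean of M values (TMM), levels of single eggs are raw CPM, and each fitted log2 fold is M3 over wildtype with its SE. The p-values measure the spread between 2 sums per group, which may be technical.

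Mos itself, on chromosome 4 (GRCm38, 3870658 to 3872105), stood at 3.63 and 3.28 CPM in the M3 sums of plates 1 and 2, against 37.1 CPM in the wildtype sum of plate 3. In batch 1 the levels were 1.51 CPM in M3 and 7.36 CPM in wildtype. The fitted log2 fold was -2.85 ± 0.57 (edgeR adjusted p = 0.00657). Per egg the picture was not the same: 13 of 17 M3 eggs and 10 of 24 wildtype eggs held any Mos count. The raw level per M3 egg had a median of 2.61 CPM and a maximum of 29.6 CPM, and per wildtype egg a median of 0 and a maximum of 267 CPM. There were 6 wildtype eggs above the highest M3 egg and 18 that were not. What the mutation changes in the gene is not stated, and these reads may include transcripts of the mutant allele.

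Across the transcriptome, 447 genes were higher and 275 lower in M3 eggs of 13832 tested (edgeR adjusted p under 0.05), which is 5.22% of tested genes in all, 3.23% higher and 1.99% lower. The share was larger among abundant genes, where 470 of the 4564 genes of at least 5 average log2 CPM were called (248 higher and 222 lower). Shares of gene lists are set below beside all tested genes, not beside genes of like abundance, so a larger share is not by itself a trait of the list. Both batches entered the fit, so that all 722 called genes had the same sign in each batch, against 62.2% of tested genes, is no replication. In the batch 2 sums alone, 604 genes (10.1%) were at least 2-fold higher and 589 (9.87%) at least 2-fold lower in M3, of 5967 genes with 20 CPM or more in either sum. For scale, the same fold was passed by 7.06% of genes between the M3 sums of plates 1 and 2 (6.86% without egg 8 of plate 1), by 2.90% between M3 and M1 and by 1.64% between M3 and M2 of batch 2. Sums per plate of batch 2 alone, with plates as replicates, called 0 genes by edgeR (1300 at an unadjusted p under 0.05). In the sums of both batches without the batch term edgeR also called 0 (1422 at an unadjusted p under 0.05). With the batch term DESeq2 called 2024 (1019 higher and 1005 lower) and limma voom 1028 (611 higher and 417 lower). The excess of rises over falls was thus nearly absent with DESeq2.

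**Figure D2:**
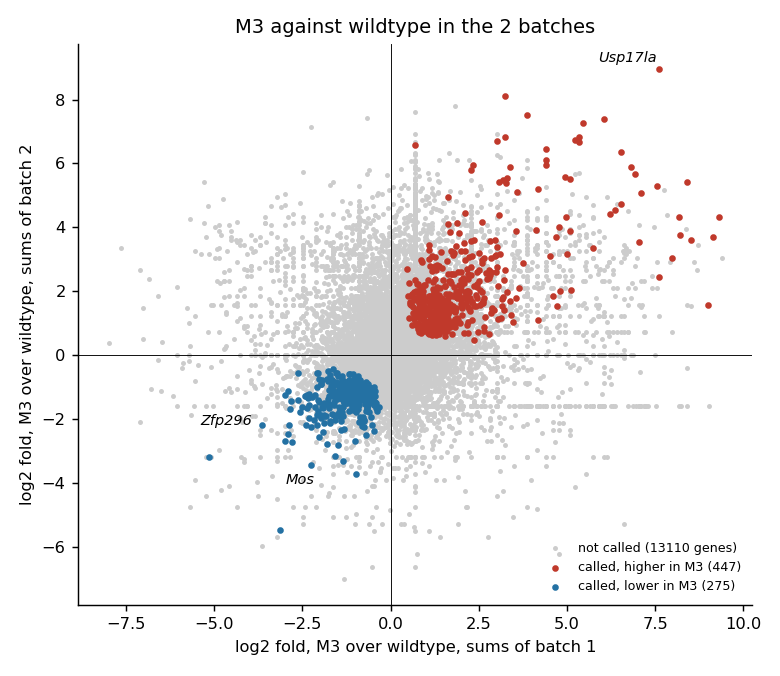
Each point is 1 of 13832 tested genes, with its log2 fold of M3 over wildtype in the sums of batch 1 (x axis) and batch 2 (y axis), 0.5 counts added to each sum. The 447 genes called higher lie in the upper right and the 275 called lower in the lower left of the plot, with Usp17la, Zfp296 and Mos named.

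Among called genes of at least 5 average log2 CPM that met the other limits of the naming rule, the largest rises were those of Calm2, Kremen1, Car9, Dnmt3l, Ttc33 and Lamtor1. Some called genes outside these limits had larger fitted folds. Dnmt3l, the cofactor of the DNA methyltransferases that imprint the growing oocyte (chromosome 10, 78042287 to 78063622), reached 387 CPM in the M3 sum of batch 2, against 46.7 CPM in the wildtype sum. Its raw level per egg ran from 20.4 to 742 CPM in M3 (median 387) and from 0 to 105 CPM in wildtype (median 31.3). All M3 eggs but egg 8 were above the highest wildtype egg. The fitted log2 fold was 2.95 ± 0.24 (edgeR adjusted p = 4.38e-06), and the counting interval of the batch 2 ratio of 8.29 was 7.24 to 9.53.

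Car9, a carbonic anhydrase of the cell surface, had 2.04 to 237 raw CPM in M3 eggs (median 99.2) and 0 to 49.3 raw CPM in wildtype eggs (median 7.20), and rose by 2.97 ± 0.40 (edgeR adjusted p = 6.50e-04). Here 15 of 17 M3 eggs passed the highest wildtype egg, and egg 8 was the lowest of M3. Lamtor1, the scaffold of the Ragulator complex that brings mTORC1 and MEK to lysosomes, had a median of 113 raw CPM in M3 eggs and 0 in wildtype eggs, and rose by 2.66 ± 0.29 (edgeR adjusted p = 6.11e-05). Calm2, 1 of several genes for calmodulin, had counts in 17 of 17 M3 eggs and 3 of 24 wildtype eggs and rose by 3.23 ± 0.42 (edgeR adjusted p = 2.68e-04). Near-identical coding copies make its counting uncertain.

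Wildtype egg 45, a deep egg of 448563 counts, held 66.7% of the wildtype Calm2 counts and 64.3% of those of Lamtor1. Without it the batch 2 log2 fold of Calm2 was 4.47 in place of 3.17, that of Lamtor1 3.82 in place of 2.56, and that of Kremen1, a receptor for Dickkopf inhibitors of Wnt signalling, 3.72 in place of 3.14. Kremen1 rose by 3.05 ± 0.31 and Ttc33, a gene of tetratricopeptide repeats, by 2.83 ± 0.37 (edgeR adjusted p = 5.73e-05 and 2.68e-04).

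By the same naming rule the largest called falls included those of Zfp296, Klhl21, Elovl5, Icmt and Alg2. Elovl5, an elongase of polyunsaturated fatty acids, had 7.62 to 144.9 raw CPM in M3 eggs (median 50.6) and 24.6 to 866 raw CPM in wildtype eggs (median 190). Every M3 egg was below the wildtype median, and the fitted log2 fold was -2.67 ± 0.28 (edgeR adjusted p = 6.11e-05). Zfp296, a zinc finger gene, had 23.6 to 361 raw CPM in M3 eggs (median 50.6) and 0 to 655 raw CPM in wildtype eggs (median 160), and fell by 2.93 ± 0.34 on the log2 scale (edgeR adjusted p = 1.72e-04). The highest M3 egg was again egg 8, and the other 16 were below the wildtype median. Alg2, a mannosyltransferase of N-glycan assembly, had 5.33 to 43.3 raw CPM in M3 eggs and 0 to 459 in wildtype eggs, with all 17 M3 eggs below the wildtype median of 73.8 raw CPM (log2 fold -2.24 ± 0.37, edgeR adjusted p = 0.00219).

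For Icmt, the methyltransferase that finishes prenylated proteins such as Ras, the fall was larger in the sums than in the medians of eggs. Icmt had a median of 24.8 raw CPM in M3 eggs and 33.2 raw CPM in wildtype eggs, and 7 wildtype eggs passed the highest M3 egg. Egg 45 held 61.3% of the wildtype counts of Icmt. Without egg 45 its batch 2 log2 fold was -2.17 in place of -3.32, and it stayed called (edgeR adjusted p = 0.00289). Klhl21, a substrate adaptor of the CUL3 ligase at the spindle midzone, lost its call without egg 45 (edgeR adjusted p = 0.0525, against 0.0498 with it). Its fitted log2 fold was then -2.71, against -2.88 with egg 45.

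Over all calls, egg medians followed the sums more closely for rises than for falls. Of the 447 genes called higher, 404 had the higher median in M3 eggs, 43 had medians of 0 in both groups and 0 had the lower. Of the 275 called lower, 214 had the lower median in M3 eggs, 5 had equal medians and 56 had the higher median in M3 eggs. By the mean of raw CPM over eggs, which weights eggs equally, 721 of 722 kept the direction of the call.

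Overlap between single eggs was the rule. Among 4564 genes of at least 5 average log2 CPM, 0 had every M3 egg above every wildtype egg and 2 had every M3 egg below every wildtype egg (0.0438% in all). The genes that follow were named after their values were seen. Oaz1, the antizyme that turns off polyamine synthesis, had 163 to 494 raw CPM in M3 eggs, against 531 to 1467 raw CPM in wildtype eggs (median 972), and was called lower (log2 fold -1.46 ± 0.29, edgeR adjusted p = 0.00644). Hic2, a transcriptional repressor, had 31.2 to 107 raw CPM in M3 and 110 to 819 raw CPM in wildtype eggs but was not called (log2 fold -1.24 ± 0.64, edgeR adjusted p = 0.364).

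Leaving out M3 egg 8 brought 6 genes to a full separation upward, and the share to 0.175%. These were Dnmt3l, Tmbim6, Dnajc14, Dync1i2, Mrpl9 and Rnf181. Leaving out any other single M3 egg gave 0 or 1 such genes. Tmbim6, a membrane protein of the endoplasmic reticulum that restrains cell death, had 431 to 816 raw CPM in those 16 M3 eggs, 180 in egg 8 and 0 to 299 raw CPM in wildtype eggs. Dync1i2, an intermediate chain of cytoplasmic dynein, had 198 to 746 raw CPM in the 16 eggs, 93.9 in egg 8 and 0 to 165 in wildtype eggs. Of these 6 genes only Mrpl9, of the mitochondrial ribosome, was not called (log2 fold 1.22 ± 0.47, edgeR adjusted p = 0.195).

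**Figure D3:**
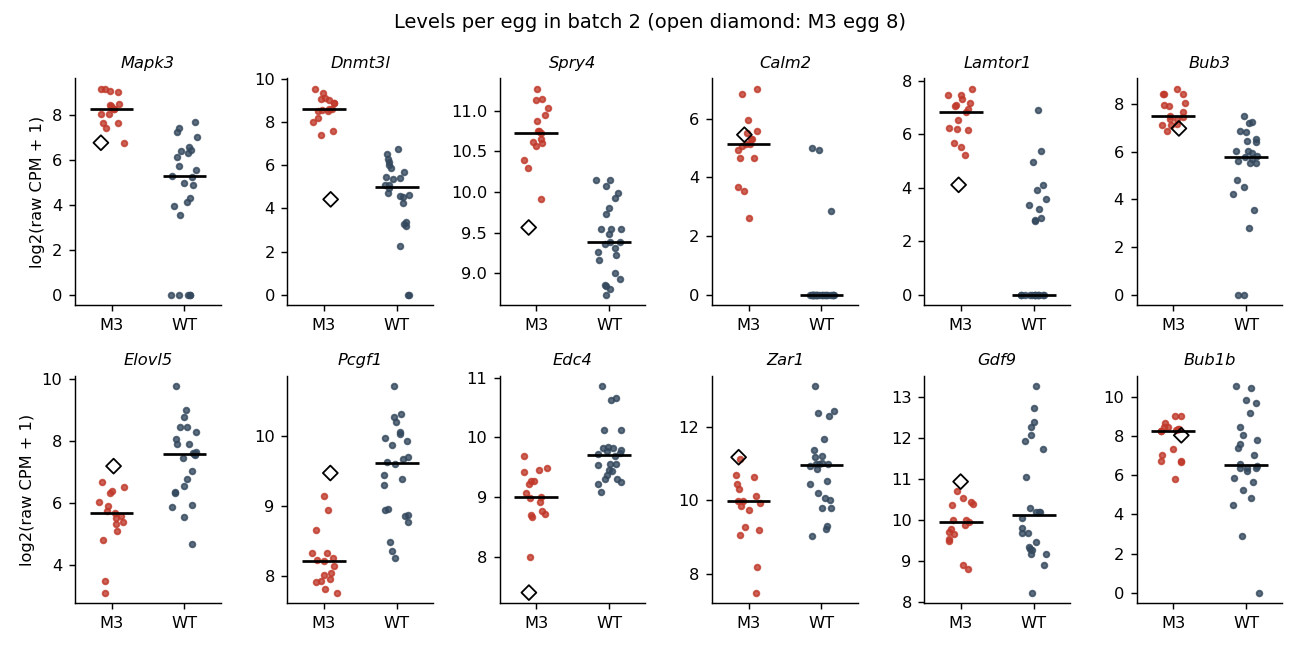
Raw levels per egg in batch 2 on a log2(CPM + 1) scale for 12 genes, 17 M3 eggs left and 24 wildtype eggs right in each panel; bars are medians and the open diamond is M3 egg 8. For Mapk3, Dnmt3l and Spry4 most M3 eggs lie above every wildtype egg (12, 16 and 15 of 17) while egg 8 lies among the wildtype eggs, as it does for Lamtor1, where 8 M3 eggs lie above every wildtype egg, and for Gdf9 and Bub1b 8 and 5 wildtype eggs lie above every M3 egg.

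In the Mos and MAP kinase cascade 2 of 17 tested members rose, 1 fell and 14 did not pass (17.6% called, beside 5.22% of all tested genes, 3.23% higher and 1.99% lower). Mapk3, the kinase ERK1 (chromosome 7, 126759626 to 126765816), had 108.2 to 576 raw CPM in M3 eggs (median 308) and 0 to 205 raw CPM in wildtype eggs (median 37.7). All 17 M3 eggs were above the wildtype median and 12 above the highest wildtype egg, and Mapk3 rose by 2.29 ± 0.24 (edgeR adjusted p = 6.11e-05). Bub1, a spindle checkpoint kinase also placed in this list, rose by 1.05 ± 0.27 (edgeR adjusted p = 0.0292), and Mos was the member that fell.

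Among 23 tested genes that answer to ERK signalling, only Spry4, a feedback inhibitor of the pathway, rose, and 0 fell, a share of 4.35% that is near the 5.22% of all tested genes. The Spry4 raw level was 755 to 2466 CPM in M3 eggs (median 1688) and 425 to 1136 CPM in wildtype eggs (median 667). Of the 17 M3 eggs 15 were above the highest wildtype egg, with egg 8 the lowest, and the fitted log2 fold was 0.98 ± 0.20 (edgeR adjusted p = 0.00773). The median fitted log2 fold of all 23 was 0.77, beside 0.12 over all tested genes. In the batch 2 sums the median log2 fold of the 8 members with 20 CPM or more was -0.09, beside -0.12 over all such genes.

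For the factors that hold or drive M phase, 3 of 22 tested rose and 0 fell (13.6% called, beside 5.22% of all tested genes), and 1 of 22 rose without egg 8. They were Ensa, the Greatwall substrate that inhibits PP2A, Cdk1, the M-phase kinase, and Cdc25c, a phosphatase that activates it. Ensa had 7.61 to 79.5 raw CPM in M3 eggs (median 50.7) and 0 to 43.6 raw CPM in wildtype eggs (median 0), and rose by 2.20 ± 0.33 (edgeR adjusted p = 6.57e-04). The other two rested on few counts. Cdk1 had 134 counts in M3 and 16 in wildtype, a ratio of 2.76 (counting interval 1.64 to 4.98), and Cdc25c 78 counts in M3 and 1 in wildtype, held by wildtype egg 42, a ratio of 25.7 (4.49 to 1030). Egg 8 was the highest M3 egg for both, at 69.4 and 48.98 raw CPM, and without egg 8 neither was called (edgeR adjusted p = 0.0622 and 0.0681), nor was either without the 9 wildtype eggs of over 35% in 50 genes (edgeR adjusted p = 0.07715 and 0.0646). Their fitted log2 folds without egg 8 were 2.06, against 2.19 with it, for Cdk1 and 2.40, against 2.60 with it, for Cdc25c. Cyclin B1, Ccnb1, the partner of Cdk1, had 467 to 1997 raw CPM in M3 eggs and 308 to 1736 in wildtype eggs and did not pass (edgeR adjusted p = 0.790).

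Of 21 members of the anaphase promoting complex list, 0 rose and 2 fell (9.52% called, beside 5.22% of all tested genes). Without wildtype egg 45 the numbers were 2 and 4, and without egg 8 they were 1 and 2. Anapc2, the cullin of the complex, had a median of 100 raw CPM in M3 eggs and 177 raw CPM in wildtype eggs, and fell by 1.22 ± 0.25 on the log2 scale (edgeR adjusted p = 0.00800). Espl1, the separase that cuts cohesin, had medians of 280 in M3 and 442 raw CPM in wildtype eggs, with 5 M3 eggs below the lowest wildtype egg, and fell by 0.98 ± 0.22 (edgeR adjusted p = 0.0127). None of 21 cohesin and condensin members was called by edgeR (5 at an unadjusted p under 0.05, 2 by DESeq2 and 0 by voom). The most abundant, Smc4, had 140 raw CPM in the median M3 egg and 399 in the median wildtype egg, yet in batch 1 the sums held 502 CPM in M3 and 552 CPM in wildtype (log2 fold -0.64 ± 0.26, edgeR adjusted p = 0.172).

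Spindle checkpoint and kinetochore genes had 3 of 25 higher and 1 lower (16% called, beside 5.22% of all tested genes). Bub3, which recruits checkpoint proteins to kinetochores, rose by 1.36 ± 0.23 (edgeR adjusted p = 0.00226), with all 17 M3 eggs above the wildtype median and medians of 178 in M3 and 54.5 raw CPM in wildtype eggs. Ttk, the checkpoint kinase Mps1, rose by 0.91 ± 0.22 (edgeR adjusted p = 0.0221), again with all 17 M3 eggs above the wildtype median. Bub1b, the checkpoint protein BubR1, was called lower (-1.35 ± 0.30, edgeR adjusted p = 0.0173), with sums of 258 CPM in M3 and 378 CPM in wildtype. Its median egg went the other way, at 313 raw CPM in M3 and 92.0 raw CPM in wildtype, since 5 wildtype eggs were above every M3 egg, up to 1507 raw CPM. Without the batch 1 wildtype sum, which leaves 1 wildtype sum, the fitted log2 fold of Bub1b was -0.68. Other named genes moved too when that sum was left out, some to smaller folds (Spry4 to 0.83, against 0.98). Others moved to larger ones (Icmt to -2.83, against -2.28).

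In the spindle and microtubule list 1 of 25 rose and 2 fell (12% called, beside 5.22% of all tested genes), or 2 and 3 without wildtype egg 45, and of 23 genes of cortical actin and polar body extrusion edgeR called 0 (5 at an unadjusted p under 0.05, 3 by DESeq2 and 0 by voom). Ect2, the exchange factor that starts cytokinesis, rose by 1.39 ± 0.36 (edgeR adjusted p = 0.0409), a fold carried mainly by batch 1, where the log2 fold was 2.38, against 0.47 in batch 2. It lost its call without wildtype egg 45 (edgeR adjusted p = 0.0534), where its fitted log2 fold was 1.32. The tubulin genes Tubb6 and Tuba1c fell by 1.30 ± 0.26 and 1.84 ± 0.39 on the log2 scale (edgeR adjusted p = 0.00685 and 0.00830). Median eggs held 90.6 raw CPM of Tubb6 in M3 and 72.6 in wildtype, the reverse of the sums, while the mean over eggs was lower in M3 (log2 fold -0.47). For the actin list the most abundant member was Myo5b, a myosin motor, with 774 CPM in the M3 sum and 992 CPM in the wildtype sum (edgeR adjusted p = 0.742).

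Transcripts that mark the egg itself were lower where they were called. Of 15 egg markers 6 fell and 0 rose (Zar1, Gdf9, H1f8, Padi6, Zp1 and Dppa3), 40.0% beside 5.22% of all tested genes, with a median fitted log2 fold of -0.53. The list was chosen with earlier results of these data known, and abundant genes were called more often, so this share is a description. Not all markers moved down: in the batch 2 sums 2 of the 15 were at least 2-fold higher in M3 and 5 at least 2-fold lower. For Zp1 the median egg was higher in M3 (277 raw CPM, against 197 in wildtype). Without egg 8 the number called lower was 5, and without the 9 wildtype eggs of over 35% in 50 genes it was also 5. In the list of oocyte growth and transcription factors 0 of 24 rose and 3 fell (12.5% called), Zfp296, Gdf9 and H1f8. Zar1, which binds and masks stored messages, had 179 to 2316 raw CPM in M3 eggs (median 1004) and 525 to 8824 raw CPM in wildtype eggs (median 1984), and fell by 1.69 ± 0.21 on the log2 scale (edgeR adjusted p = 2.30e-04). Of 17 M3 eggs 15 were below the wildtype median. H1f8, the linker histone of oocytes, had medians of 2218 in M3 and 3477 raw CPM in wildtype eggs, and fell by 1.47 ± 0.22 (edgeR adjusted p = 7.68e-04). Padi6, needed for the cytoplasmic lattices, had medians of 755 in M3 and 1284 raw CPM in wildtype eggs, and fell by 1.68 ± 0.26 (edgeR adjusted p = 9.02e-04).

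Gdf9, the growth factor the oocyte secretes to its follicle, had similar medians in both groups, and its sums differed through part of the wildtype eggs. The sums held 984 CPM in M3 and 2926 CPM in wildtype, and the fitted log2 fold was -1.58 ± 0.21 (edgeR adjusted p = 2.68e-04). The medians were 985 in M3 and 1101 raw CPM in wildtype eggs. Here 8 wildtype eggs passed the highest M3 egg of 1947 raw CPM, the highest, egg 45, at 9722 raw CPM, and the other 16 wildtype eggs lay within or below the range of M3. For Zar1 and H1f8 the number of wildtype eggs above every M3 egg was 8 and 7.

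Of 15 tested genes of the zona pellucida, cortical granules and sperm fusion, 1 rose and 1 fell (13.3% called, beside 5.22% of all tested genes). Zp1, a zona glycoprotein, was called lower by sums (log2 fold -1.30 ± 0.26, edgeR adjusted p = 0.00666), with sums of 249 CPM in M3 and 419 CPM in wildtype, while the median egg held 277 raw CPM in M3 and 197 raw CPM in wildtype. The zona genes Zp2 and Zp3, named after their values were seen, did not pass (edgeR adjusted p = 0.670 and 0.0943). By sums Zp3 was lower in M3, with a fitted log2 fold of -0.83 ± 0.28 (-1.04 in batch 2 and -0.60 in batch 1). Single eggs went the other way: all 17 M3 eggs were above the wildtype median for both Zp2 and Zp3. The Zp2 median was 293 raw CPM in M3 and 126 raw CPM in wildtype eggs, and the Zp3 median 201 raw CPM in M3 and 38.9 raw CPM in wildtype eggs. Egg 45 alone held 2965 and 3364 raw CPM of these. Mfsd2a, a membrane transporter of the list, rose by 1.33 ± 0.36 (edgeR adjusted p = 0.0383), with 11 M3 eggs above every wildtype egg. It lost its call without the 9 wildtype eggs of over 35% in 50 genes (edgeR adjusted p = 0.0526), at a fitted log2 fold of 1.32.

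In the maternal effect list 1 of 29 rose, near the 3.23% of all tested genes, and 3 fell, beside 1.99% of all tested genes. Without egg 8, or without the 9 wildtype eggs of over 35% in 50 genes, 2 fell. Nlrp9b, of the oocyte Nlrp family, rose by 0.84 ± 0.21 (edgeR adjusted p = 0.0279), with medians of 520 in M3 and 273 raw CPM in wildtype eggs. In the translational control list 0 of 26 rose and 2 fell, Zar1 and Cpeb1 (7.69% called, beside 5.22% of all tested genes). Without wildtype egg 45, 3 rose and 2 fell. Cpeb1 is the binder of cytoplasmic polyadenylation elements. Its call was lost without egg 8 (edgeR adjusted p = 0.0590, against 0.0465 with it). The call was also lost without those 9 wildtype eggs (edgeR adjusted p = 0.0557) and without wildtype egg 45 (edgeR adjusted p = 0.0650).

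Among genes of deadenylation and decay, 3 of 31 rose and 2 fell (16.1% called, beside 5.22% of all tested genes). Without egg 8, 3 rose and 1 fell, and without the 9 wildtype eggs 2 rose and 1 fell. Edc4, the scaffold of the decapping complex, had 167 to 824 raw CPM in M3 eggs (median 512) and 543 to 1849 raw CPM in wildtype eggs (median 832). All 17 M3 eggs were below the wildtype median and 10 below the lowest wildtype egg, and Edc4 fell by 1.33 ± 0.24 on the log2 scale (edgeR adjusted p = 0.00283). Cnot1, the scaffold of the CCR4-NOT deadenylase, had medians of 245 in M3 and 69.8 raw CPM in wildtype eggs and rose by 1.22 ± 0.23 (edgeR adjusted p = 0.00436). Dcp2, the decapping enzyme, rose by 1.02 ± 0.23 (edgeR adjusted p = 0.0132), with 16 of 17 M3 eggs above the wildtype median.

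Cleavage and polyadenylation genes had 1 of 23 higher and 3 lower (17.4% called, beside 5.22% of all tested genes). Cpsf1, the largest subunit of the cleavage factor that reads the polyadenylation signal, had a median of 25.8 raw CPM in M3 eggs and 69.3 in wildtype eggs, and fell by 2.13 ± 0.29 on the log2 scale (edgeR adjusted p = 4.60e-04). Papolg, a poly(A) polymerase, rose by 1.78 ± 0.34, and Cstf1, a cleavage stimulation factor, fell by 0.88 ± 0.22 (edgeR adjusted p = 0.00468 and 0.0261).

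Chromatin and DNA methylation factors had 2 of 28 higher and 3 lower (17.9% called, beside 5.22% of all tested genes). Beside Dnmt3l, the histone H3.3 gene H3f3a rose by 2.11 ± 0.32 (edgeR adjusted p = 7.98e-04), with counts in 17 of 17 M3 eggs and 10 of 24 wildtype eggs; its copies make the counting uncertain. Pcgf1, a subunit of a variant polycomb complex, had 216 to 706 raw CPM in M3 eggs (median 295) and 303 to 1664 raw CPM in wildtype eggs (median 780). Of the M3 eggs 10 were below every wildtype egg, with egg 8 the highest of M3, and Pcgf1 fell by 1.79 ± 0.23 on the log2 scale (edgeR adjusted p = 2.68e-04). In calcium handling 1 of 20 rose (beside 3.23% of all tested genes), Calm2, and 1 fell, Cacna1h, a T-type calcium channel found in eggs (-1.01 ± 0.24, edgeR adjusted p = 0.0176).

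None of 9 mitochondrially encoded genes was called by edgeR, DESeq2 or voom (0 at an unadjusted p under 0.05), and none of 7 theca, stroma, endothelium and blood markers (1 at an unadjusted p under 0.05). mt-Co1, a subunit of cytochrome oxidase, had 1238 CPM in the M3 sum and 1059 CPM in the wildtype sum of batch 2 (edgeR adjusted p = 0.618), with 2163 and 563 CPM in the M3 sums of plates 1 and 2 and 12802 raw CPM in egg 8 alone. Pecam1, an endothelial gene that eggs also express, had 105 CPM in M3 and 89.3 CPM in wildtype (edgeR adjusted p = 0.518). Of 14 granulosa markers 1 was called (7.14%, beside 5.22% of all tested genes), Gja1, the connexin of cumulus cells. It held 30 counts in 4 of 17 M3 eggs, 63.3% of them in egg 12, and none in wildtype, at least 3.30-fold higher against a floor of 3 counts in the wildtype sum, and was not called without egg 8 or without the 9 wildtype eggs (edgeR adjusted p = 0.0540 and 0.0568).

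**Figure D4:**
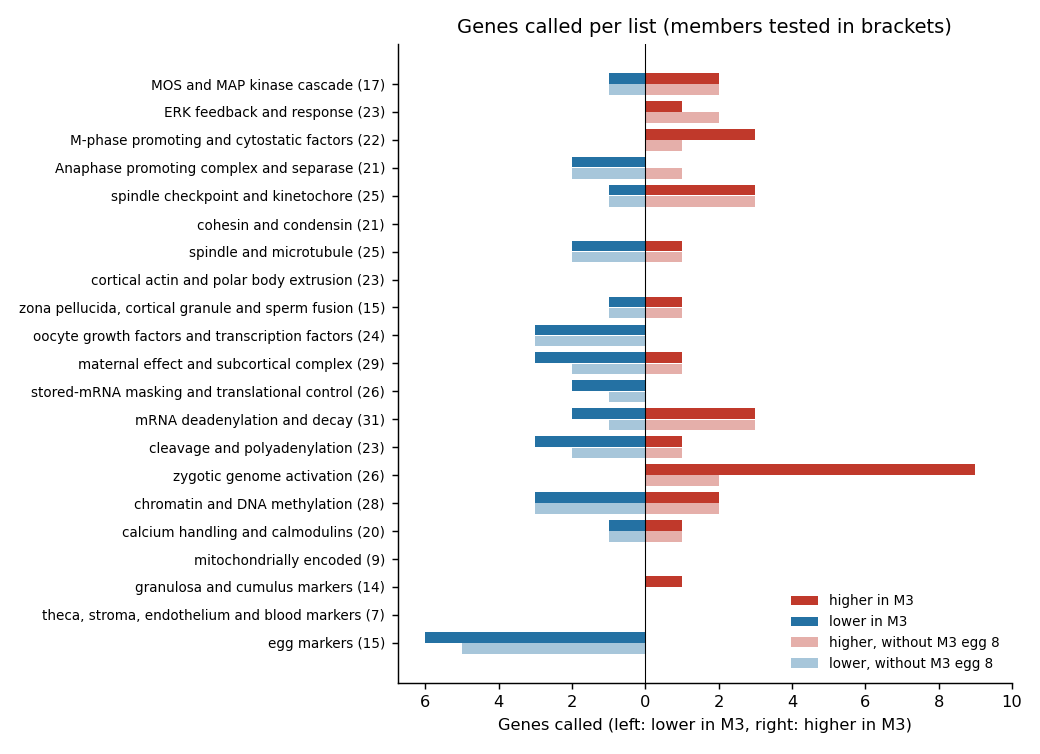
Genes called per list, with members tested in brackets, to the right where higher and to the left where lower in M3, and in pale bars the same without M3 egg 8 (x axis, number of genes). Only the zygotic list changed by more than 2 genes, with 2 called without egg 8 and 9 with it.

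The values of zygotic genes in egg 8 are a description, since egg 8 was singled out for them. It held 3.75% of M3 counts in batch 2 but 3920 of 3975 counts (98.62%) of 12 gene symbols of zygotic genome activation, the Usp17l and Zscan4 copies, Zfp352 and Duxf3, which two-cell embryos transcribe. These genes summed to 8000 raw CPM in egg 8 and to 0 to 20.6 raw CPM in the other 16 M3 eggs (median 1.24). In activated eggs of plate 4 the sum ran from 40.8 to 2004 raw CPM (median 351), with counts in 17 of 17 eggs, and wildtype eggs held 0 to 29.9 raw CPM, with counts in 2 of 24. Egg 8 was thus above every activated egg, and the other M3 eggs were below every activated egg.

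The Usp17l copies, genes of deubiquitinases in a cluster on chromosome 7, led the zygotic transcripts of egg 8, and 2 of their promoters are shown because they let a reader see how alike the copies are. The sequences are RefSeq's, GRCm38.p6, from 250 bases before to 50 after the start, with the 29 bases that all 4 copies with an entry share in capitals; that run lies in 4 of 32851 promoters. Usp17la is at chr7:104856766-104857065 on the plus strand and Usp17lb at chr7:104842534-104842833 on the minus strand.
Usp17la: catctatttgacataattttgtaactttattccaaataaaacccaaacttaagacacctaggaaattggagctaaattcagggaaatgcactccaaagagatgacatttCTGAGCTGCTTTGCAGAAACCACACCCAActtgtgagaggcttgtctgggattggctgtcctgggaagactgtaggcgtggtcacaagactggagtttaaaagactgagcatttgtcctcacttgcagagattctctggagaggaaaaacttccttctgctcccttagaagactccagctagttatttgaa
Usp17lb: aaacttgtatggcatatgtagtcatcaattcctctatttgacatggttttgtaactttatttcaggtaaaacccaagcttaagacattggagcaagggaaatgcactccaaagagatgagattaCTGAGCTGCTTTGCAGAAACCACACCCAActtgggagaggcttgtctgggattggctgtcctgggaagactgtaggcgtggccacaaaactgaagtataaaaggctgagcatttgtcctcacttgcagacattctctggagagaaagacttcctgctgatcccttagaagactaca
TATAAAA, searched on both strands, is in 3 of the 4 windows and in 5.48% of all promoters. Reads of near-identical copies could have been split or lost in the counting, so the values of single copies are uncertain.

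Usp17la had 746 counts in M3 eggs and 0 in the wildtype ones of batch 2, at least 82.1-fold higher against a floor of 3 counts in the wildtype sum, and 99.9% of them lay in egg 8. Usp17lb had 763 counts in M3, 99.6% of them in egg 8, and 1 in wildtype, a ratio of 252 (counting interval 45.1 to 9960), and Usp17le 1008 counts in M3 and 1 in wildtype (ratio 333, 59.6 to 13154). Usp17le was not called (edgeR adjusted p = 0.0668), and 1005 of its M3 counts lay in egg 8, with 3 left without it. Usp17lc, at 416 counts, and Pramel16, of the Prame family, with a raw level of 251.0 CPM in egg 8, were seen in no other M3 egg of batch 2. Both held 0 counts in the wildtype eggs of that batch. Tmem92, with 311 counts in M3 and 3 in wildtype (ratio 34.2, 11.6 to 167), was not called (edgeR adjusted p = 0.0558), with 92.0% of its M3 counts in egg 8.

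Of 26 tested members of the zygotic list 9 were called higher and 0 lower (34.6%, beside 3.23% of all genes called higher). Since egg 8 was singled out for such transcripts, that share is a description and no test. Without egg 8 the number was 2, Zfp352 and Arg2, the arginase of mitochondria. Usp17la was no longer called (edgeR adjusted p = 0.112, against 2.38e-05 with egg 8), at a fitted log2 fold of 7.91. In batch 1, which does not hold egg 8, the M3 sum had 3.03 CPM of Usp17la and the wildtype sum 0. For Usp17lb, Usp17lc and Pramel16 the batch 1 levels were 1.01, 1.31 and 1.41 CPM in M3 and 0, 0.125 and 0 CPM in wildtype. Low levels were thus seen in M3 eggs other than egg 8. Zfp352, without egg 8, rested on batch 1, with 1 count left in M3 eggs of batch 2. Arg2 was not a matter of egg 8: it had 20.3 to 121.2 raw CPM in M3 eggs (median 56.5), 34.7 in egg 8, and 0 to 239 raw CPM in wildtype eggs (median 0), with a log2 fold of 1.22 ± 0.33 (edgeR adjusted p = 0.0366).

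**Figure D5:**
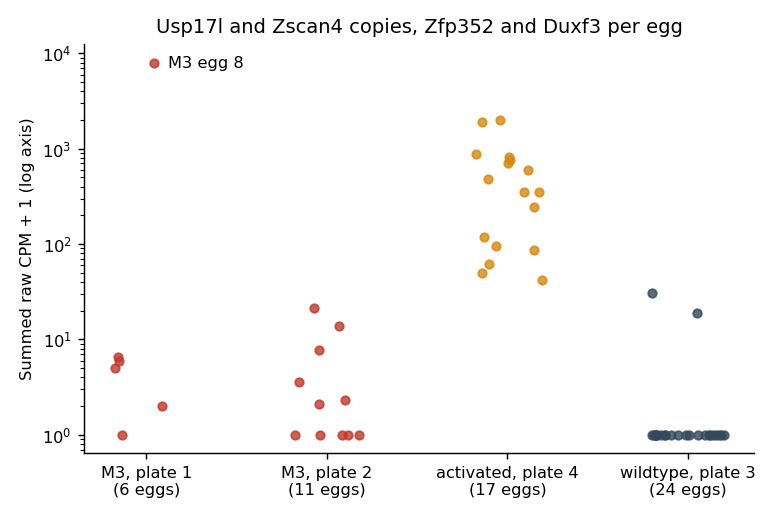
Summed raw CPM plus 1 (log axis) of 12 zygotic symbols in each M3 egg of plates 1 and 2, each activated egg and each wildtype egg. Egg 8 of M3 is at 8000, above the highest activated egg at 2004, and the other 16 M3 eggs are at 20.6 or below.

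Egg 8 differed beyond the zygotic genes. It had 50 genes of at least 100 raw CPM with 0 counts in the other 16 M3 eggs, and the same count was 0 for each of those 16 eggs. On the zygotic list were 3 of the 50. Of the 50, 44 were also at 0 in all wildtype eggs, and of these 38 had counts in activated eggs. How many other genes had any count in the 17 activated eggs was not counted, so the 38 are no measure of likeness. Mitochondrially encoded genes gave 2.69% of its counts, against a median of 0.111% over M3 eggs and 0.168% over wildtype eggs. At 60000 counts 8367 genes were detected in it, the most of any M3 egg. The 17 markers of theca, stroma, endothelium and blood summed to 473 raw CPM in egg 8, at most 206 in the other M3 eggs and at most 267 in wildtype eggs. Col1a1, a collagen of stroma, gave 155 raw CPM of this in egg 8 and was at 0 in all other M3 and all wildtype eggs. Pdgfra, Acta2, Lyz2 and Cyp17a1 were also highest in egg 8, at 63.3, 12.2, 12.2 and 2.04 raw CPM. The highest other egg of either group held 14.2, 1.99, 2.23 and 0 raw CPM of these. Pecam1, Laptm5 and Cd68 were lower in egg 8 than in the highest wildtype egg. Star and Kdr were at 0 in egg 8 but not in all others, and Col1a2, Col3a1, Cdh5, Ptprc, Tyrobp, Hba-a1 and Hbb-bs were at 0 in all eggs of both groups. The part of other cells in the values of egg 8 was not tested.

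In the genes called between M3 and wildtype, egg 8 was the M3 egg on the wildtype side more often than any other. Among 470 called genes of at least 5 average log2 CPM, egg 8 was the lowest M3 egg for 51.21% of 248 genes called higher and the highest for 22.52% of 222 called lower, 177 genes in all. The counts for the other 16 eggs ran from 2 to 49. The same was not counted over all genes or for the side away from wildtype. Whether it is particular to called genes, or to the wildtype side, was therefore not tested. Examples are Dnmt3l (20.4 raw CPM in egg 8, against a median of 389 in the other M3 eggs and 31.3 in wildtype eggs), Spry4 (755 in egg 8 and 667 in the median wildtype egg) and Zfp296 (361 in egg 8 and 160 in the median wildtype egg). For Edc4 and Espl1 it was the other way: egg 8 was the lowest M3 egg, at 167 and 102.04 raw CPM, and so farther from wildtype than the rest.

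Without egg 8 the edgeR test called 700 genes, 451 higher and 249 lower, and 652 of the 722 calls were kept. Without the 9 wildtype eggs of over 35% in 50 genes it called 608 (587 of the 722 kept), without both 558 (536 kept), and without wildtype egg 45 it called 964 (674 kept). In the batch 2 sums the number past 2-fold was 1226 without egg 8 (724 higher and 502 lower). With M3 of plate 1 alone it was 1609 (700 higher and 909 lower) and with M3 of plate 2 alone 1219 (696 higher and 523 lower). Of the genes named by rule, 8 lost their call without egg 8: Cdk1, Cdc25c, Cpeb1, Gja1, Usp17la, Usp17lb, Usp17lc and Pramel16.

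M3 was also set against M1 and M2, which shared its plates but had growth numbers of 1 and 2, to see where it differed from them. In sums per plate with plate as a term, 1 of 11609 genes was called (0.00861%), Usp17la, higher in M3 by 7.78 ± 0.82 (edgeR adjusted p = 0.00468). Its M3 sums held 122.8 CPM on plate 1 and 0.126 CPM on plate 2, and without egg 8 edgeR called 0 genes (537 at an unadjusted p under 0.05, and 577 with it). Egg 8 was singled out for zygotic transcripts, so the Usp17la call too is a description and no test. With egg 8, DESeq2 called 98, 33 higher and 65 lower in M3, and limma voom called 1, lower in M3 and so not Usp17la. A call that is missed does not show that M1, M2 and M3 were alike. Dnmt3l had 387 CPM in M3, 372 in M1 and 328 in M2 of batch 2, and Mapk3 308, 250 and 288 CPM in M3, M1 and M2. Gdf9 had 984 CPM in M3, 1855 in M1 and 1195 in M2, Zar1 892, 1638 and 1538, Padi6 729, 1757 and 1248, and Icmt 21.3, 63.3 and 72.8, lowest in M3 each time. The log2 differences of Gdf9, Zar1, Padi6 and Icmt from the mean of M1 and M2 were -0.62 ± 0.15, -0.78 ± 0.22, -1.07 ± 0.21 and -1.23 ± 0.44, and none passed (edgeR adjusted p = 0.671, 0.731, 0.440 and 0.926). M3 was not lowest for every gene called lower than wildtype: Anapc2 had 91.1 CPM in M3, 94.8 in M1 and 78.8 in M2, and Edc4 469, 547 and 468.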

How the data were processed

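Single eggs were sequenced with Smart-seq2. The authors deposited whole-number counts per gene symbol, not normalised, for 107 eggs (21564 symbols). STAR, HTSeq, GRCm38 and mm10 appear in the submitters' processing notes, without versions; no source used here gives the annotation or strand setting. Without strand, overlapping and antisense genes cannot be told apart.

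Eggs of at least 10000 counts were added up by group and batch, which gave 9 sums. edgeR 4.0.16 (R 4.3.3) used filterByExpr (minimum count 10), TMM scaling, group and batch terms and a robust quasi-likelihood F test. M3 was set against M1 and M2 in sums per plate. Batch 2 folds added 0.5 counts to each sum and have exact binomial 95% intervals, which cover counting error only, as does the floor of 3 counts. Named genes were the 6 highest and 6 lowest folds among calls of at least 5 average log2 CPM, 2-fold in batch 2 and on 1 side in both batches and M3 plates (no predicted genes), Mos, up to 3 called members of each of 21 lists or else the most abundant, called genes of M3 against M1 and M2, and the 5 zygotic genes highest in egg 8; other genes named were chosen after their values were seen, and 1 gene that the rule names is not reported here. Of 476 list entries 474 were found. Members and lists were chosen with earlier results of these data known. Positions are RefSeq's on GRCm38.p6. Alternatives were other scalings, tools (DESeq2 1.42.0, limma 3.58.1), filters and sets of eggs. The fits were tested on simulated data.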

Additional observations from a re-analysis of the deposited data

Results flagged for a closer look

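Among the 6 M3 eggs of plate 1, egg 8 stood apart in 2 of 5 measures by the size of its gap to the nearest egg. Its mitochondrially encoded genes gave 2.686% of counts (median of the 6 eggs 0.424%), and 8367 genes were detected at 60000 counts (median 6787). Chance marks about 1 in 20 groups in this way for each measure, and more often when 5 measures are tried. Both marked measures come from 1 library, which was known for its zygotic transcripts beforehand.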

How the results depend on the processing

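No paired analysis was possible because M3 and wildtype eggs of batch 2 share no replicate number and eggs were summed. The count of 722 genes was 1273 with no filter on low counts, 2024 with DESeq2, 234 for a fold of at least 1.5, and 0 both without the batch term and in plate sums of batch 2 alone (unadjusted counts stand in the text); leaving out single sums gave 335 to 785, the single remaining sum being assumed to vary like the others. The count past 2-fold was 2312 with a floor of 5 CPM. Against M1 and M2, in place of 1 gene, 113 were called with no filter, 98 with DESeq2, 4 with eggs thinned to 60000 counts, 0 without egg 8, 0 without a plate term (278 at an unadjusted p under 0.05) and 0 to 5 when single plates were left out. The cause was not tested. The other alternatives run kept these counts within 1.5 times. Genes not called whose fitted log2 fold changed sign were Myo5b (-0.32 to 0.0016 over the sums left out), mt-Co1 (-0.19 to 0.73) and Pecam1 (-0.83 to 0.088, and 0.26 in plate sums of batch 2). No called gene named by rule changed the sign of its fitted fold; in batch 2 without egg 8, Usp17lb, Usp17lc and Pramel16 were left with 3, 0 and 0 counts in M3 and 1, 0 and 0 in wildtype, too few for a fold. The leave-outs of egg 45, and of egg 8 together with the 9 wildtype eggs, were chosen after the data were seen. Low depth of wildtype eggs limits counts of 0 there: a gene at 0 may be below detection.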

Other observations

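The M3 eggs of the 2 plates were not alike. Between the plate sums 420 of 5951 genes differed at least 2-fold, and 401 of 5844 (6.86%) without egg 8. The number was thus similar without that egg, but how many genes were the same was not counted. Calm2 had 62.6 CPM on plate 1 and 25.8 CPM on plate 2, Nlrp9b 806 and 427 CPM, and Bub3 149 and 253 CPM. No test of plate was possible within M3, where each plate is 1 sum.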
